A study of Mus musculus with 4 samples.

Results

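The zinc finger protein genes examined here are the autosomal genes whose name on the array starts with Zfp and a digit. The array named 235 of them, 178 with at least 2 probes and 57 with 1 probe. Genes on chromosomes 9, 12 and 15 and on chromosome 7 below 26.5 Mb were left out, which removed 32 of the 178. The remaining 146 genes, with 630 probes, stood among 13417 autosomal genes with at least 2 probes, of which 11392 lay outside the left-out regions. Of the 146, 63 had another Zfp gene within 200 kb and are called clustered, and 83 had none and are called single. The distance chose the groups and no copy-number value did: Zfp467 was the clustered gene with the widest gap (170.1 kb) and Zfp273 the single gene with the narrowest (262.7 kb). Their values in tumours 1 to 4 were -0.04, 0.04, 0.03 and -0.09 for Zfp467 and 0.02, -0.03, 0.10 and -0.08 for Zfp273.

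Most Zfp genes encode C2H2 proteins, in which repeated fingers held by a zinc ion read DNA. A large group of them also carries a KRAB domain, which recruits the corepressor KAP1 (Trim28) and through it the histone methyltransferase Setdb1, and many of these silence retroelements. KRAB zinc finger genes multiplied by tandem duplication, so they often lie in dense clusters of similar genes, which are known to differ in gene number between mouse strains. A name in the set does not by itself show a C2H2 protein, and a changed symbol does not show the lack of one. Of the 146 names, 136 were symbols of the RefSeq gene table of GRCm38, 9 matched through 1 synonym and 1, Zfp91-cntf, did not match. Of the 9, 7 now have a symbol that does not start with Zfp, among them the ubiquitin ligase genes Ubr3 (Zfp650) and Ltn1 (Zfp294), and Rnf114, Rnf115, Zbtb49, Champ1 and Zkscan8 (Zfp192 on the array).

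The samples were liver tumours of 4 male mice, and each value is a log2 ratio of tumour DNA over reference DNA from array comparative genomic hybridization. The title gives the strain C57BL/6J and a loss of Trp53 limited to the liver, whereas the genotype is given as Trp53-/- for tumours and reference alike. The reference is labelled as spleen, taken from 3 pooled littermates of the same sex according to the design text, while the labelling protocol calls it liver. The mice were untreated, no promoter, Cre driver or age is named, and there is no other group, so the comparisons are between tumour and reference and, within the genes, between clustered and single ones.

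Tumour DNA was red (Cy5) on every array, without a dye swap, and each of 2 slides carried 2 arrays (tumours 1 and 2, tumours 3 and 4). Between 98.93% and 99.95% of the spots were well above background in each channel, and 81 to 258 flagged spots an array were left out. The array of tumour 2 was the noisiest, with an SD between neighbouring probes of 0.37 against 0.12 to 0.15 on the others. Arrays 1 and 4 went against the labelled sex. The reference channel of array 1 and the tumour channel of array 4 read chromosome Y far lower, at -3.38 and -3.11, and chromosome X higher, at -0.07 and -0.08, than the other channels. X and Y were left out. The limma counts of Zfp genes are given with and without these arrays. So are the differences between clustered and single genes in mean, distance from the reference and median range. The other autosomal results are given with them only. With 4 arrays, the precision of each mean is set by their number.

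The probes behind the largest values are shown for the reader to see what was hybridized. They come from the array design, are written 5′ to 3′ with no part in capitals, and are placed on mouse build mm9. For Zfp207, the probe with the largest range lies at chr11:80203247-80203306. The Zfp341 probes lie at chr2:154450589-154450637 (probe A) and chr2:154469281-154469328 (probe B). The Zfp536 probe at chr7:38377325-38377384 and the Zfp322a probe at chr13:23454667-23454726 were chosen after their values were seen. Whether a probe lies in an exon or an intron was not analysed here.
Zfp207: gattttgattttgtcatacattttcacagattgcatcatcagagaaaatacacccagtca
Zfp341 probe A: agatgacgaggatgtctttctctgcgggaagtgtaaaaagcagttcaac
Zfp341 probe B: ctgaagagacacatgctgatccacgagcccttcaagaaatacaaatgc
Zfp536: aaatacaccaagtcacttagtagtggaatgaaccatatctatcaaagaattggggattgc
Zfp322a: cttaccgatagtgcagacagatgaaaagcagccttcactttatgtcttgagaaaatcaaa

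In median GC content the probes of these genes were like all autosomal probes. The median GC content was 36.67% for the 166 probes of clustered genes, for the 464 probes of single genes and for all 159076 autosomal probes. None of the 630 probes shared 20 bases with a probe of another gene of the set, on either strand, and 1 shared 20 bases with some other autosomal probe. None held a stretch coding for the conserved linker between C2H2 fingers, searched in all reading frames of both strands. Only 1 of all autosomal probes did, too few for a comparison. Matches of the probes to other places in the genome were not analysed here.

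Outside the left-out regions, the medians of the Zfp genes lay close to the reference in copy number. Those regions were set aside with earlier results of these data known, so this closeness does not cover all Zfp genes. The Zfp genes left out on chromosome 15 had medians of 0.20, 0.40, 0.24 and 0.21 in tumours 1 to 4. Those on chromosome 9 had medians of -0.19, -0.13, -0.16 and -0.26. In tumour 1 the lowest of the 146 gene values was -0.35, the median -0.01 and the highest 0.30. Tumour 2 ranged from -0.73 through a median of -0.05 to 0.65, tumour 3 from -0.29 through -0.005 to 0.24, and tumour 4 from -0.45 through -0.02 to 0.20. Tumour 2 spread widest, in the Zfp genes as in all genes: the SD over genes was 0.24 and 0.25 there, against 0.09 to 0.11 in the others.

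The genes at or beyond 0.2 in size (a ratio of 1.15 or its inverse) were counted in each tumour. In tumour 1 they numbered 5 of 146 (3.42%), where 2.98% of all genes outside the left-out regions lay that far out. Of the 5, 1 was higher (1.73% of all genes) and 4 lower (1.26%). In tumour 2 they numbered 67 (45.9%) against 37.7% of all genes, with 27 higher (18.6%) and 40 lower (19.2%). In tumour 3 they numbered 8 (5.48%) against 3.19%, with 1 higher (0.913%) and 7 lower (2.27%). In tumour 4 they numbered 11 (7.53%) against 5.91%, with 1 higher (1.45%) and 10 lower (4.46%). Lower values outnumbered higher ones in each tumour, in all genes also in tumours 2, 3 and 4. The shares are not matched for probe number, which was 3 at the median in the Zfp genes and 4 in all genes. With 3 or 4 probes, 1.72%, 48.3%, 1.72% and 6.90% of 58 Zfp genes lay that far out, against 2.56%, 42.4%, 3.15% and 6.25% of all such genes, lower in tumours 1 and 3 and higher in tumours 2 and 4. Every tumour had the same sign in 39 Zfp genes, 13 above and 26 below 0, a share of 26.7% against 26.9% of all genes.

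**Figure D1:**
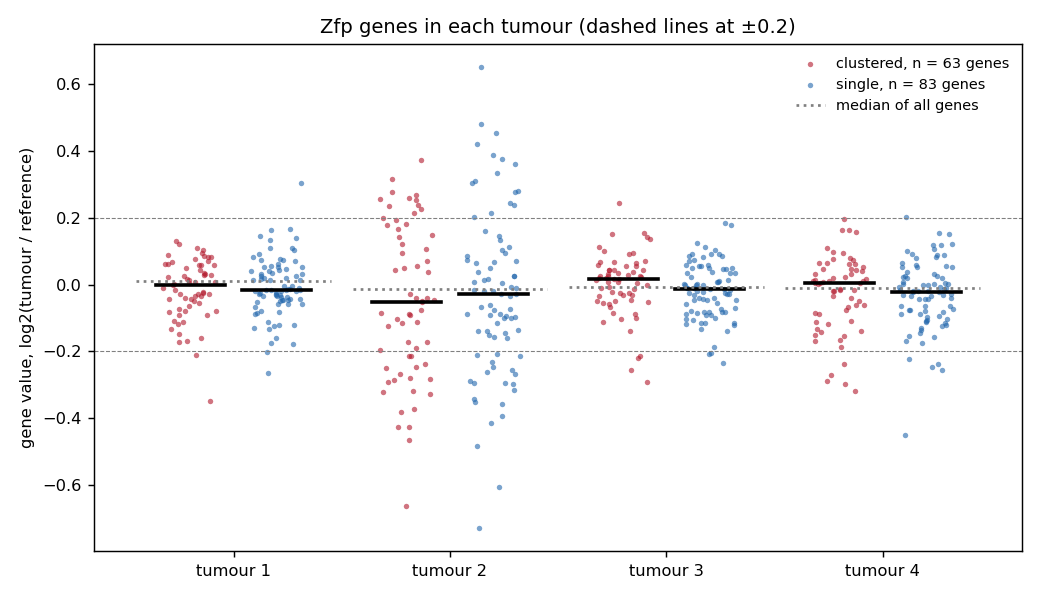
Gene values, log2 of tumour over reference, of clustered (red) and single (blue) Zfp genes in each tumour. Each point is 1 gene, thick bars are medians of the group and dotted lines medians of all genes outside the left-out regions. Points of tumour 2 spread from -0.73 to 0.65, and the 63 clustered and 83 single genes overlap in every tumour.

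The mean level of clustered and single genes differed by less than the spread between tumours. The mean of clustered genes minus that of single genes was -0.009, -0.023, 0.018 and 0.004 in tumours 1 to 4, on average -0.0025 ± 0.0175 (SD, n = 4), with both tumours of the first slide below 0 and both of the other above. Without tumours 1 and 4 it was -0.0027 ± 0.0290 (SD, n = 2), and without tumour 2 it was 0.0044 ± 0.0132 (SD, n = 3). The part of the slide in these signs was not tested. The mean distance from the reference in either direction was larger in clustered genes by 0.0024, 0.0081, 0.0020 and 0.0064, on average 0.0047 ± 0.0030 (SD, n = 4). It was 0.00505 ± 0.00435 (SD, n = 2) without tumours 1 and 4. All 4 differences lay above 0. Their size depended on the centring: with mode centring the mean was 0.000584 ± 0.00517 (SD, n = 4), smaller than its SD. With only genes of 2 or 3 probes, an alternative chosen after seeing the data, the difference turned to -0.0112 ± 0.0172 (SD, n = 4).

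Of the 63 clustered genes 2, 30, 5 and 5 reached 0.2 in size in tumours 1 to 4, shares of 3.17%, 47.6%, 7.94% and 7.94%. Of the 83 single genes 3, 37, 3 and 6 did, shares of 3.61%, 44.6%, 3.61% and 7.23%, against 2.98%, 37.7%, 3.19% and 5.91% of all genes. Not matched for probe number, the share was higher in clustered genes in tumours 2, 3 and 4, most so in tumour 3, and lower in tumour 1. The average share over the 4 tumours was 16.7% for clustered and 14.8% for single genes. Tumour 2 raised both: without it they were 6.35 ± 2.75% and 4.82 ± 2.09% (SD, n = 3). The order changed among genes with 2 probes. There the shares in tumours 1 to 4 were 6.06%, 51.5%, 12.1% and 9.09% of 33 clustered genes. They were 9.09%, 59.1%, 9.09% and 13.6% of 22 single genes, against 6.48%, 53.6%, 6.95% and 11.6% of all such genes. Clustered genes had the higher share in tumour 3 alone.

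The range between the highest and the lowest tumour of a gene had a median of 0.27 in clustered genes, 0.23 in single genes and 0.21 in all genes. Clustered genes had fewer probes, and in all genes the median range fell from 0.29 with 2 probes to 0.23 with 3 or 4 and 0.16 with more. Of the clustered genes 33 had 2 probes, 28 had 3 or 4 and 2 had more, while of the single genes 22, 30 and 31 did. Among genes with 2 probes the order depended on tumour 2: the median range was 0.30 in clustered, 0.32 in single and 0.29 in all genes with it, and 0.17, 0.12 and 0.16 without it. The difference of the medians between clustered and single genes, 0.037 over all, was -0.027 among genes with 2 or 3 probes. It was 0.025 without tumours 1 and 4 and 0.026 without tumour 2. Tumour 2 was the highest or the lowest tumour in 79.45% of the Zfp genes and in 76.45% of all genes.

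**Figure D2:**
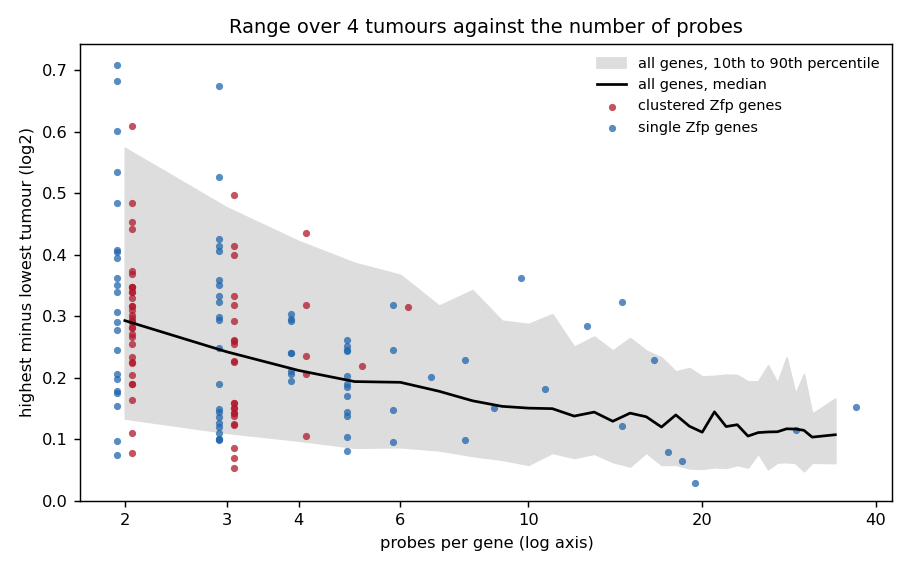
Range over the 4 tumours (log2) of each clustered (red) and single (blue) Zfp gene against its number of probes, on a log axis, with the median (line) and the 10th to 90th percentile (grey) of all genes outside the left-out regions. Most clustered genes sit at 2 to 4 probes, where the ranges of all genes are widest, and the single gene with 38 probes, Zfp385b, has a range of 0.15.

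Not 1 Zfp gene had a mean that passed against 0. In limma with Benjamini-Hochberg adjustment over 13417 genes, 0 of the 146 were higher and 0 lower, and 0.0% of all genes passed in either direction. At an unadjusted p under 0.05, 5 were higher (7.94% of all genes) and 17 lower (11.0% of all genes). Both shares cover the left-out regions too, where none of the 146 genes lay, and are not given without them. The smallest adjusted p was 0.0784, for Zfp398, a clustered gene on chromosome 6 (47788628 to 47809464). Its 3 probes averaged -0.17, -0.33, -0.22 and -0.30 in tumours 1 to 4, all below the reference, with a mean of -0.25 ± 0.07 (SD, n = 4). The 62 other probes within 500 kb averaged 0.003, -0.07, -0.01 and -0.10, a mean of -0.04 ± 0.05 (SD, n = 4), so the region around it lay nearer to 0 than the gene in every tumour.

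Leaving out tumour 2 gave 4 Zfp genes lower and 0 higher in limma, where 5.58% of all genes were lower and 3.11% higher. Outside the left-out regions these shares were 0.843% and 0.606%. The 4 were Zfp398 (adjusted p = 0.0251), Zfp219 (0.0315), Zfp367 (0.0358) and Zfp654 (0.0433), and they were named for passing there. Zfp219, which encodes a transcriptional partner of Sox9, read -0.26, -0.02, -0.14 and -0.16 over 2 probes, with the value of tumour 2 nearest to 0. Zfp367 read -0.12, -0.41, -0.19 and -0.18 over 4 probes, lowest in tumour 2. Zfp654 read -0.20, -0.48, -0.12 and -0.45 over 2 probes, the lower of them at -0.25, -1.17, -0.17 and -0.63. The probes around the last 3 genes averaged between -0.03 and -0.01 over the tumours. Without tumours 1 and 4, 0 genes of the set passed in either direction, with 0.00745% of all genes higher and 0.0% lower. Other settings also moved the count. With normexp 6 of 146 were lower (6.13% of all genes) and 0 higher (4.83%), with at least 3 probes 1 of 91 was lower (1.86%) and 0 higher (1.92%), and with the slide as a random block 7 were lower (4.78%) and 1, Zfp664, was higher (3.54%). Outside the left-out regions, where all Zfp genes of the set lie, 3.41%, 0.196% and 1.76% of genes were lower in these 3 fits.

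Segments of neighbouring probes average over longer stretches. At a threshold of 0.2 over at least 5 probes, 0 of the 146 genes lay in a called gain or loss of any tumour. Of all genes outside the left-out regions, 0.0176% were gained and 0.0878% lost in tumour 1, 0.439% and 0.413% in tumour 2, 0.0351% and 0.0% in tumour 3, and 0.079% and 0.0% in tumour 4. At a threshold of 0.1, 11 calls fell on Zfp genes, 8 of them in tumour 2. A gain of chromosome 17 with a segment mean of 0.11 held 7 of these, whose own values in tumour 2 ran from -0.46 (Zfp472) to 0.22 (Zfp101). At this threshold 3.31% of all genes were gained in tumour 2 and 3.31% lost, Zfp42 among the latter. Zfp364 (now Rnf115) was lost in tumour 4, at a segment mean and a gene value of -0.11, as were 0.588% of all genes. Zfp385b and Zfp804a on chromosome 2 lay in a gain of tumour 1 with a segment mean of 0.10, where 1.63% of all genes were gained. Their 38 and 17 probes averaged 0.14 and 0.09 in that tumour. Zfp385b read 0.03, -0.01 and 0.09 in tumours 2 to 4.

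The dense clusters were set against their own surroundings. Between the first and the last Zfp gene of each of 20 clusters, all probes were averaged and compared with those up to 500 kb on each side. The median difference over clusters was -0.02, -0.05, -0.002 and -0.02 in tumours 1 to 4. Among the 10 clusters with at least 10 probes the mean over tumours ran from -0.06 to 0.07, and 0 of the 10 reached 0.1. In tumour 2 alone 3 of these 10 did. The furthest from its flanks was the cluster of Zfp692 and Zfp672 on chromosome 11, with 3 probes, at -0.09, -0.40, -0.13 and -0.14, a mean of -0.19 ± 0.14 (SD, n = 4), followed by Zfp81 to Zfp101 on chromosome 17, with 9 probes, at a mean of -0.13 ± 0.13 (SD, n = 4).

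The largest cluster, from Zfp708 to Zfp748 on chromosome 13 (67173156 to 67652561), held 12 Zfp genes, 11 of them in the set. Genes of this cluster were isolated as candidates for Rsl, regulators of sex-specific gene expression in liver. Its 65 probes differed from the flanks by -0.02, -0.07, -0.01 and -0.02, a mean of -0.03 ± 0.03 (SD, n = 4). The mean was below 0 in 4 of the 11 genes. Zfp459 read 0.06, -0.43, -0.26 and -0.12 over 2 probes and Zfp748 read 0.05, -0.28, -0.08 and -0.17, each above the reference in tumour 1 alone. Zfp58 went the other way in tumour 2, at 0.04, 0.23, -0.03 and -0.07.

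The cluster from Zfp84 to Zfp146 on chromosome 7 (30560677 to 30951424) held 11 Zfp genes, 7 of them in the set, and 42 probes. It differed from its flanks by -0.04, -0.20, 0.01 and -0.03, a mean of -0.06 ± 0.09 (SD, n = 4), and by -0.02 without tumour 2. Genes of this cluster differed in direction in tumour 2: Zfp84 read -0.03, 0.37, 0.01 and 0.16, whereas Zfp27 read -0.03, -0.28, 0.07 and -0.08. The cluster from Zfp677 to Zfp820 on chromosome 17 (21521478 to 21972318), with 7 genes, all in the set, and 52 probes, differed by 0.02, -0.09, -0.02 and -0.01, a mean of -0.02 ± 0.05 (SD, n = 4). All 7 genes had a mean below 0, between -0.16 and -0.01. Zfp820 was the lowest, at -0.07, -0.32, -0.06 and -0.19. Zfp53 had the widest range, at 0.01, -0.19, 0.15 and -0.06, and Zfp54 the next, at -0.03, -0.21, 0.07 and -0.02. All 3 were lowest in tumour 2.

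**Figure D3:**
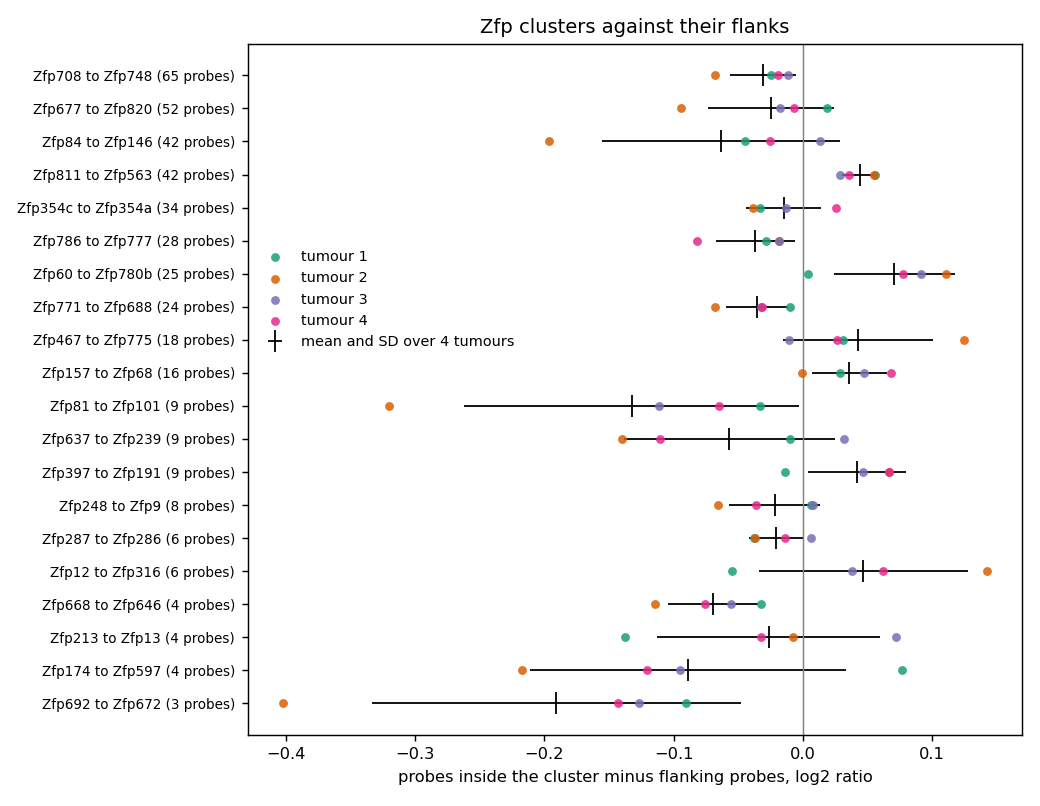
Difference in log2 ratio between the probes inside each of 20 Zfp clusters and the probes up to 500 kb on each side. Coloured points are tumours, black ticks and bars the mean and SD over 4 tumours, and clusters are ordered by their number of probes (in brackets). The clusters with 10 or more probes lie within 0.1 of 0 on average, and tumour 2 (orange) lies beyond 0.1 in 9 of the 20 clusters, against 1, 2 and 3 in the other tumours.

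All 10 genes with the largest ranges had their highest or lowest value in tumour 2. Zfp207, which encodes a mitotic spindle and kinetochore protein, had the widest, 0.71, with -0.02, -0.73, -0.07 and -0.26 in tumours 1 to 4. The probe printed above read 0.02, -1.07, -0.13 and -0.23, and the other probe of the gene -0.06, -0.39, -0.02 and -0.28. Without tumour 2 the range of the gene was 0.24.

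Zfp192 (now Zkscan8) read 0.08, -0.60, 0.04 and -0.04, a range of 0.68, and its 2 probes were low together in tumour 2, at -0.66 and -0.55. Zfp341 read 0.11, 0.65, -0.02 and -0.02 over 3 probes, the highest value of the set. Its probes A and B, which have a GC content of 44.9% and 45.8% against 38.3% in the third, read 0.69 and 0.84 in tumour 2, and the third read 0.42. Values rose with probe GC content most on that array, with a correlation over autosomal probes of 0.28 against 0.06 to 0.09 on the others. With the GC trend removed the range of Zfp341 fell from 0.67 to 0.41, while that of Zfp192 rose from 0.68 to 0.79. The part of GC content in the value of Zfp341 beyond this was not tested.

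Of the other 7 by range, Zfp672 (0.61, lowest in tumour 2 at -0.66), Zfp459 (0.48) and Zfp64 (0.48, at -0.35) were lowest in tumour 2. Zfp830 (0.60), Zfp509 (0.53), Zfp217 (0.53) and Zfp786 (0.50) were highest there, at 0.48, 0.45, 0.39 and 0.26. Zfp217, a transcription regulator amplified in human breast cancer under the name ZNF217, read -0.13, 0.39, 0.05 and -0.14. Without tumour 2 the widest ranges of these 7 were those of Zfp459 (0.32) and Zfp786 (0.30). Zfp786 read 0.06, -0.03 and -0.24 in tumours 1, 3 and 4.

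**Figure D4:**
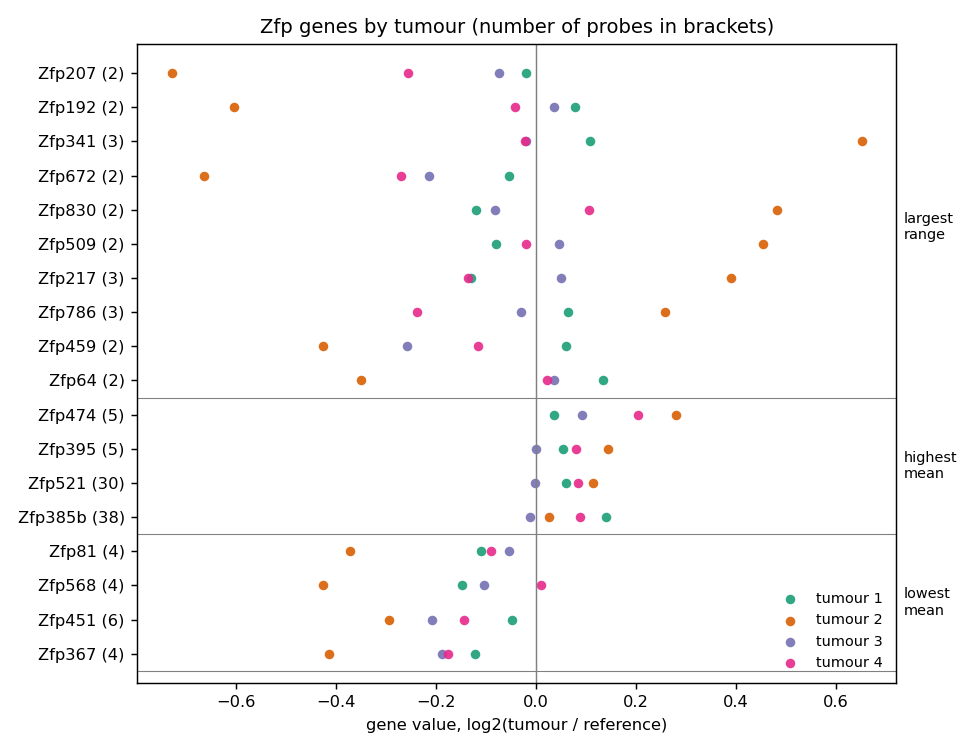
Gene values, log2 of tumour over reference, of the 10 Zfp genes with the largest range and of the 4 highest and 4 lowest means among genes with at least 4 probes. Colours are tumours and brackets give the number of probes. Tumour 2 (orange) is the highest or the lowest value of each of the 10 genes in the top block.

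Among genes with at least 4 probes the highest mean was 0.15 ± 0.11 (SD, n = 4), in Zfp474 on chromosome 18, at 0.04, 0.28, 0.09 and 0.20. It was above the reference in 4 of 4 tumours and did not pass (limma adjusted p = 0.198). Zfp395, Zfp521 and Zfp385b followed at 0.07, 0.06 and 0.06. At the other end Zfp367 averaged -0.22 ± 0.13, Zfp451 -0.17 ± 0.10, Zfp568 -0.17 ± 0.18 and Zfp81 -0.16 ± 0.15 (SD, n = 4 each). Zfp451, which encodes a SUMO ligase, read -0.05, -0.29, -0.21 and -0.14, below the reference in every tumour (limma adjusted p = 0.146).

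KRAB genes of imprinting and retroelement silencing made a list of 13, of which 5 were in the set. None of the 5 passed (smallest limma adjusted p = 0.269), and their means had a median of -0.05. Zfp568, a repressor of a placental Igf2 transcript, read -0.15, -0.43, -0.10 and 0.01, the lowest of the list at -0.17 ± 0.18 (SD, n = 4). Zfp819, a repressor of retroelements in pluripotent cells, averaged -0.09 ± 0.09 (SD, n = 4). Zfp597, an imprinted gene, averaged -0.05 ± 0.11, Zfp708, whose protein binds a retroelement family, -0.03 ± 0.09, and Zfp369 0.07 ± 0.15 (SD, n = 4 each). Zfp809 and Zfp110 lay in left-out regions, Zfp57 and Zfp37 had 1 probe, and 4 names were not matched. The 3 genes of the CCCH type, which bind RNA, were not measured: Zfp36 had 1 probe and the others were not matched.

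A list of 26 Zfp genes of development, pluripotency or cancer had 20 genes in the set, Zfp207 and Zfp451 among them. None passed (smallest limma adjusted p = 0.146), and 5 had an unadjusted p under 0.05, where 7.94% of all genes were higher and 11.0% lower at that level. Those shares include the left-out regions, in which none of the 20 genes lay. The median of their means was -0.01 against -0.004 over all genes. Zfp42, the pluripotency marker Rex1, read 0.04, 0.34, 0.09 and 0.15, above the reference in every tumour, with a mean of 0.15 ± 0.13 (SD, n = 4). The segment around it in tumour 2 averaged -0.17, opposite to the 3 probes of the gene. Zfp335, a regulator of neural progenitors, averaged -0.11 ± 0.06 (SD, n = 4), and Zfp318 averaged -0.14 ± 0.13, each below the reference in 4 of 4 tumours. The genes with the most probes differed in direction. Zfp423, a regulator of fat cell commitment with 19 probes, averaged 0.01 ± 0.03, and Zfp521, a regulator of blood and bone progenitors with 30 probes, averaged 0.06 ± 0.05 (SD, n = 4 each). Zfp536, with 18 probes, averaged -0.09 ± 0.03 (SD, n = 4), below the reference in every tumour, and is described with its outlying probe.

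Genes that work with KRAB zinc finger proteins were taken from a list of 30, of which 21 had at least 2 autosomal probes. None of the 21 passed, 4 of them in left-out regions, and limma gave an unadjusted p under 0.05 for 6, where 7.94% of all genes were higher and 11.0% lower. Cbx3, which encodes an HP1 protein, averaged 0.22 ± 0.16, the chromatin remodeller Chd4 -0.21 ± 0.24 and Setdb1 -0.19 ± 0.07 (SD, n = 4 each). Setdb1 read -0.17, -0.29, -0.13 and -0.17, below the reference in every tumour. Among those that passed without tumour 2 were Setdb1 (limma adjusted p = 0.0350) and Dnmt1 (0.0383), the latter in a left-out region.

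Single probes of Zfp genes reached 0.5 in size in 5, 129, 6 and 7 of 630 in tumours 1 to 4, against 0.48%, 18.7%, 0.759% and 0.881% of all probes outside the left-out regions. Of the 630, 2 lay at or beyond 0.5 on the same side in at least 3 tumours, and 0.111% of all probes outside the left-out regions did. The printed Zfp536 probe read -0.36, -1.19, -0.77 and -1.34, while Zfp536, a repressor of neuronal differentiation with 18 probes, read -0.08, -0.14, -0.09 and -0.06. Without that probe the gene read -0.06, -0.08, -0.05 and 0.01. The other was 1 of the 10 probes of Zfp532 on chromosome 18, at -1.05, -0.65, -0.98 and 0.99. It was above the reference in tumour 4 alone. Zfp532 read -0.11, -0.26, -0.13 and 0.10 with it and -0.01, -0.22, -0.04 and 0.002 without it. The reference came from littermates and not from the tumour's own mouse, so at single probes a change in the tumour and a difference between mice cannot be told apart.

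The values of Zfp genes were alike between tumours to a limited degree. Over the 146 genes the correlation between tumours lay between 0.10 (tumours 1 and 2) and 0.45 (tumours 2 and 4), and over all genes between 0.06 and 0.47. These are descriptions across genes, which are not independent, and the arrays share their probes, their GC content and the kind of reference. Deviations of single probes from their gene mean correlated between 0.09 and 0.51 over the 630 probes.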

How the data were processed

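The deposited scanner files were written by Feature Extraction 12.0.1.1 per the file headers (12.0.0 in the submitters' processing notes), with probes placed on mm9, and the deposited processed intensity of each channel is background-subtracted, detrended and dye-normalized by 1 linear factor. The deposited mean and background intensities were used for normexp (offset 50), and the deposited log10 ratio to check the direction. From these, log2 of red over green was taken per spot, flagged spots were left out, probes were averaged per gene and arrays centred on the autosomal median. Genes were tested against 0 with limma 3.58.1 in R 4.3.3 (lmFit, eBayes, Benjamini-Hochberg over all genes), which leaves out the reference's own spread. The tumours came from 4 mice, per the design text. Segments came from penalised least squares (penalty factor 3, numba 0.67.0, Python 3.11.15). Both were tested on simulated data. Alternatives were normexp, mode centring, flagged spots kept, dim probes left out, the GC trend removed, medians over probes, other thresholds and distances, at least 3 probes, the slide as a block and each tumour left out.

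The set and the lists were chosen with earlier results of these data known. Named genes were the 10 largest ranges, the 4 highest and 4 lowest means among genes with at least 4 probes, 3 genes of each of the 3 largest clusters by range, and the role lists. KRAB silencing partners were matched also through RefSeq synonyms. Zfp398, Zfp219, Zfp654, Zfp532, Zfp322a and the genes in segments at 0.1 were added after their values were seen.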

Additional observations from a re-analysis of the deposited data

Results flagged for a closer look

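Of 59 sets of 4 tumour values examined (the named genes, both contrasts of clustered and single genes and the 3 largest clusters), 2 had a tumour far from the other 3. Chance alone gives about 1 in 20 where sets are chosen without regard to their values. Here many genes were named for their values, and Zfp322a was added after its values were seen. That rate therefore cannot be set against the 2. Zfp322a on chromosome 13 (23445277 to 23460029, 3 probes) read 0.303 in tumour 1 against -0.01, -0.03 and -0.01 in tumours 2 to 4. The printed probe carried this, at 0.88 in tumour 1 and 0.25, 0.01 and -0.08 in the others, while the other 2 probes read -0.04 and 0.07 in tumour 1. The 123 other probes within 500 kb averaged 0.03 there. Zfp708, at the start of the largest cluster, read -0.172 in tumour 2 against 0.003, 0.03 and 0.01 in tumours 1, 3 and 4. The array of tumour 2 was the noisiest, and the part of that noise in this value was not tested.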

How the results depend on the processing

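No paired analysis was possible because the series has 1 group. The alternatives without tumours 1 and 4 together and with only genes of 2 or 3 probes were chosen after seeing the data. In limma, Zfp genes lower numbered 6 with normexp, 1 with at least 3 probes and 7 with the slide as a random block, which also gave 1 higher (Zfp664). The within-slide correlation was -0.34, which makes the standard errors of that fit smaller. Of all genes, 6.13%, 1.86% and 4.78% were lower in these fits and 3.54% higher with the block. Leaving out each tumour in turn gave 0 to 4 lower and 0 higher. Of the 21 partner genes, 5, 1 and 1 passed limma in either direction in these 3 fits, with fewer than 21 tested at 3 probes. Of all genes, 4.83% were higher with normexp and 1.92% with at least 3 probes. Without a tumour 0 to 3 partner genes passed, the 3 without tumour 2, where 5.58% of all genes were lower and 3.11% higher. Genes in segments numbered 11 at 0.1.

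Clustered minus single in mean distance was 0.00946 with normexp, 0.000584 with mode centring, 0.00825 with 100 kb and -0.0112 with 2 or 3 probes. The difference in median range was 0.0621 with normexp, 0.0213 with the GC trend removed, 0.0205 with at least 3 probes, 0.0254 without tumours 1 and 4, -0.0271 with 2 or 3 probes, and 0.0257 to 0.0512 without a tumour. Shares at 0.1 were 38.1% for clustered and 34.9% for single genes.

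Of 54 genes named, 34 were followed by their mean under every alternative, and 12 of these changed sign, none called and none beyond 0.058 in size. Means of 8 genes followed by their range also changed sign without tumour 2, the largest Zfp192 (-0.13 to 0.02), Zfp509 (0.10 to -0.02) and Zfp830 (0.10 to -0.03), the others Zfp64, Zfp58, Zfp786, Zfp54 and Zfp53. With the GC trend removed Zfp292 read 0.024, Zfp365 -0.00665 and Zfp708 0.0149. With medians over probes Zfp292 read 0.0205 and Zfp365 -0.0072, with mode centring Zfp423 read -0.0152 and Zfp365 -0.0201, and with normexp Zfp597 read 0.00685. Without a tumour the ranges were -0.0585 to 0.018 for Zfp804a, -0.0238 to 0.118 for Zfp106, -0.0722 to 0.103 for Zfp217, -0.047 to 0.0162 for Zfp292, -0.0328 to 0.000233 for Zfp462, -0.0386 to 0.0104 for Zfp326, -0.00313 to 0.0644 for Zfp143, -0.00484 to 0.017 for Zfp423, -0.0195 to 0.0491 for Zfp365, -0.0532 to 0.0156 for Zfp708 and -0.101 to 0.000847 for Zfp516. The cause was not tested. Signal over background was not compared with other limits.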

Other observations

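Zfp genes in the left-out regions lay further from 0 on chromosomes 15 and 9 than those described so far. The 6 on chromosome 15 had medians of 0.20, 0.40, 0.24 and 0.21 in tumours 1 to 4. Each median was above the reference, though not every gene value was. The 8 on chromosome 9 had medians of -0.19, -0.13, -0.16 and -0.26. Each median was below the reference, though not every gene value was. Other genes of these chromosomes were not set beside them, so no trait of Zfp genes is read from this. On proximal chromosome 7, which holds another dense group, 16 genes had medians of -0.08, 0.17, 0.0007 and 0.08, and 2 genes on chromosome 12 had -0.11, 0.16, -0.02 and -0.24. The 7 X-linked genes read -0.78, 0.17, 0.07 and 0.87, opposite in tumours 1 and 4, the arrays on which X and Y went against the labels. The 37 genes with 1 probe outside the left-out regions had medians of -0.04, 0.009, 0.03 and -0.02.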
